A study of Mus musculus with 8 samples.

Results

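Cholesterol metabolism was examined in mouse lung tumors through 33 genes chosen by name for their part in making, importing, storing and exporting cholesterol, out of 48709 genes in the count table. The members fell into 5 roles, with 7 genes of the mevalonate arm of synthesis, 11 genes of the arm from squalene to sterol, 5 regulators of the SREBP transcription factors, 5 genes of uptake, transport and storage, and 5 genes of the LXR receptors and cholesterol efflux. All 33 symbols matched 1 row of the table each, and all 33 passed the filter on low counts. The list does not hold every gene of these pathways.

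RNA was sequenced from 8 lung tumors of *K* mice, 4 labelled *K-Ctrl* and 4 labelled *K-Setd2KO*. In these mice, of mixed B6J/129S4vJae background, Cre recombinase starts tumors in the lung, and both groups share this model. According to the study's methods, tumors were started by a lentivirus placed in the airways that delivered Cre, the nuclease Cas9 and a guide RNA, which was a non-targeting control in *K-Ctrl* and, in *K-Setd2KO*, was directed at *Setd2*, the gene of the enzyme that trimethylates lysine-36 of histone H3. The study selected tumors of matched stage by histology and called the *K-Setd2KO* tumors low-grade adenomas. No cell sorting was described for these tumors, so uninfected cells of the lung may have contributed RNA. Leukocyte and endothelial marker genes were detected in all 8 tumors. Age at harvest and time from infection were not given for these tumors, and the labels do not say whether the 4 tumors of a group came from separate mice, so p-values measure the spread between these samples. The design text describes whole frozen tumors, while the extraction text speaks of cell lines.

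Animal cells build cholesterol from acetyl-CoA through mevalonate, squalene and lanosterol, and take up more in lipoproteins. When membrane cholesterol is low, the escort protein SCAP carries SREBP precursors to the Golgi for cleavage, and the released factors switch on synthesis and uptake genes, while INSIG proteins hold the complex back when sterol is plentiful. Excess sterol is esterified for storage or, as oxysterol, activates the LXR receptors, which induce efflux pumps. In the lung, alveolar type 2 cells make cholesterol-containing surfactant, and alveolar macrophages clear it and depend on efflux.

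*Stard4*, a cytosolic sterol carrier, and *Abcg1*, an efflux pump, were lower in *K-Setd2KO* tumors, and they were the only members to pass an adjusted p of 0.05 in the edgeR quasi-likelihood test. These 2 of 33 members (6.06%) compare with 12.7% of the 14929 genes tested, and the 2 lower calls with 7.74% of genes called lower. By edgeR 0 members passed as higher, where the share over all genes was 4.97%. DESeq2 and limma voom also called 0 members higher, beside 1327 and 687 of the 14929 genes tested. At an unadjusted edgeR p under 0.05 there were 7 of 33 members (21.2%), against 29.9% of all tested genes. Of these 7, 5 had lower and 2 had higher values. The median log2 fold change of the members was −0.09, with 15 members above 0 and 18 below, beside a median of 0.03 over all tested genes. The groups did not overlap for 4 members (12.1%), *Dhcr7*, *Stard4*, *Npc1* and *Abcg1*, all lower in *K-Setd2KO*, against 20.3% of all tested genes. Over all tested genes, 11.2% were lower and 9.06% higher without overlap.

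**Figure D1:**
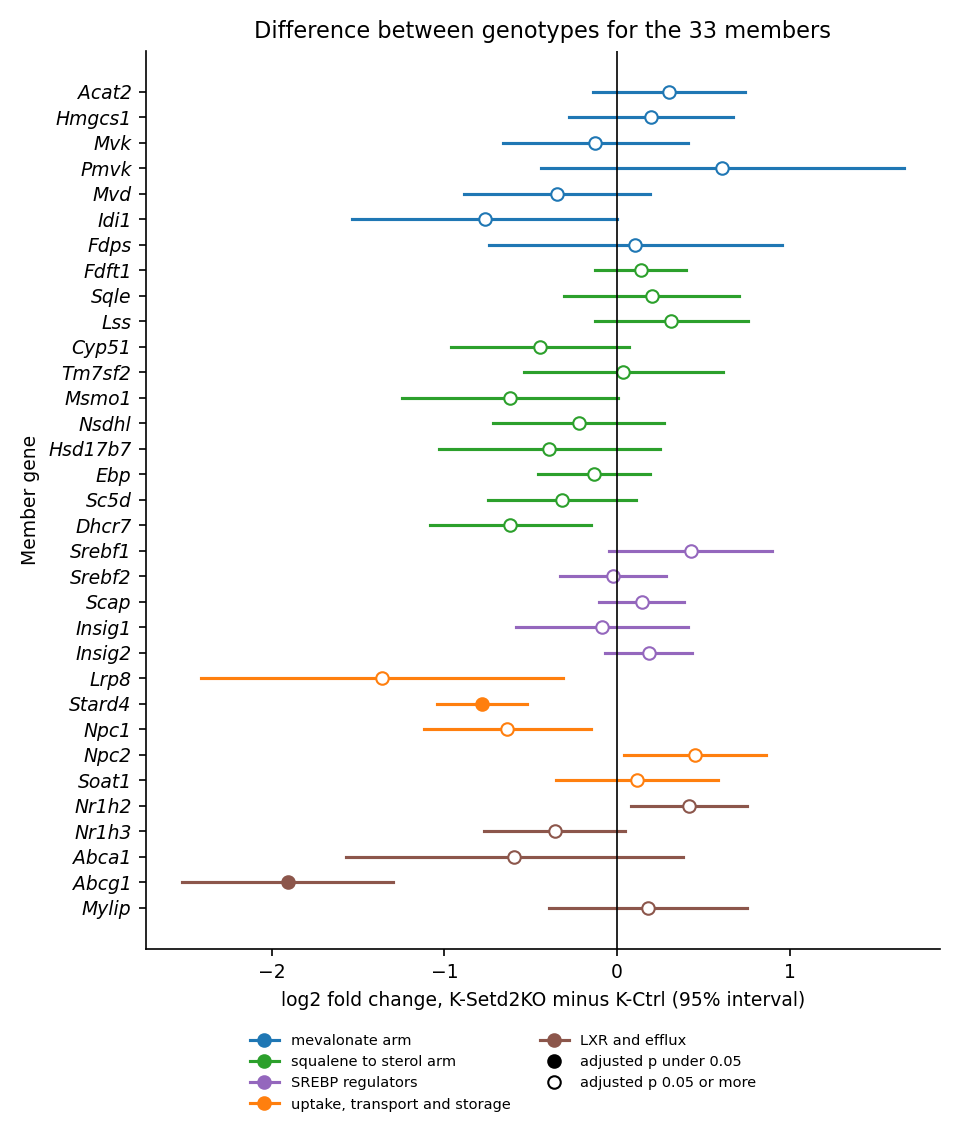
Log2 fold change (*K-Setd2KO* minus *K-Ctrl*, horizontal axis) of the 33 members in 4 against 4 tumors, with points for the edgeR estimate, bars for its 95% interval and colors for the 5 roles. Filled points mark *Stard4* at −0.78 and *Abcg1* at −1.91, the members with an adjusted p under 0.05.

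Totals ranged from 5806599 to 21290402 counts per tumor, a 3.67-fold range, and 3 counts corresponded to 0.138 to 0.513 CPM, the counts of a gene divided by its library's TMM-adjusted total. *Setd2* itself had a log2 fold change of −0.05 (SE 0.115), so its mRNA level did not separate the labelled groups, and the table holds no reads with which to see the edit. The lung epithelial and alveolar type 2 marker lists were detected in every tumor, with 2 of 9 epithelial markers (*Epcam* and *Krt18*) called higher and 1 of 10 type 2 markers called in each direction. Leukocyte RNA was lower in *K-Setd2KO*. Of 7 pan-leukocyte markers 6 were called lower (median −1.42), with summed levels of 514 to 972 CPM in *K-Ctrl* and 220 to 277 CPM in *K-Setd2KO*. Of 10 macrophage markers 7 were called lower (median −1.69), with sums of 2113 to 6467 CPM and 423 to 2649 CPM. No marker of either list was at 0 in any tumor. In bulk tumors, fewer cells of a type and less RNA per cell cannot be told apart.

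Member genes differed widely in level. Per kilobase of exon, *Npc2*, which encodes a soluble cholesterol-binding protein of the lysosome, was the most abundant at 884 CPM per kilobase (mean of 8 tumors). *Pmvk* and *Hmgcs1* of the mevalonate arm followed at 65.6 and 60.4 CPM per kilobase, and *Soat1*, which encodes the enzyme that esterifies cholesterol for storage, stood at 57.8 CPM per kilobase. The ranges of *Pmvk*, *Hmgcs1* and *Soat1* overlapped, so their order did not exceed the spread between tumors. At the other end, *Tm7sf2*, *Fdps* and the lipoprotein receptor gene *Lrp8* stood at 1.33, 1.29 and 0.42 CPM per kilobase. Of the exon bases of *Tm7sf2*, 15.3% lie over exons of *Vps51* on the same strand, and 26.7% of those of *Fdps* over *Gm43738*. The effect of this overlap on their levels was not tested.

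**Figure D2:**
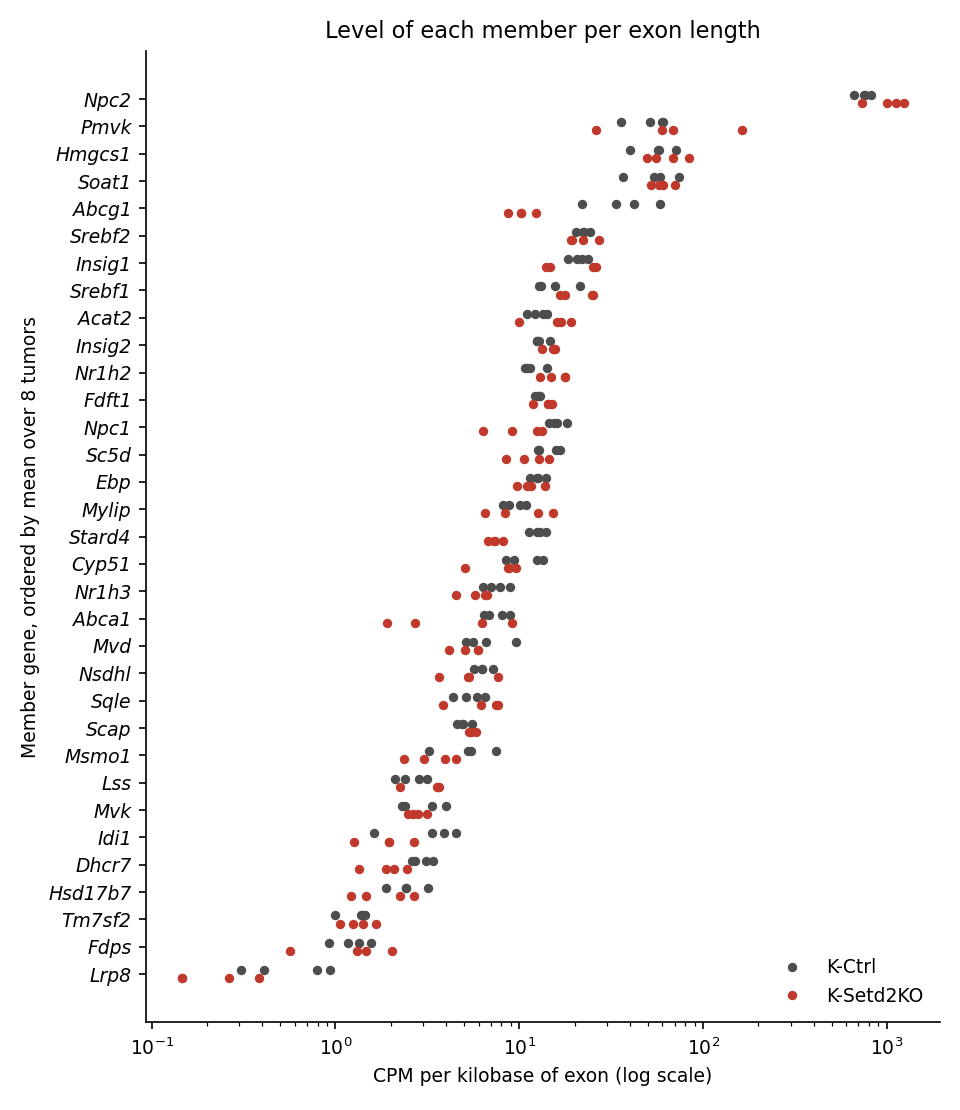
CPM per kilobase of exon (horizontal log axis) for the 33 members, ordered by mean, with 1 point per tumor in gray for *K-Ctrl* and red for *K-Setd2KO*. *Npc2* lies apart at the top with a mean of 884, and *Abcg1* is the member in which the red points sit farthest below the gray ones.

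SREBP factors bind sterol regulatory elements close to transcription starts, usually beside boxes for the factors NF-Y and Sp1. RefSeq promoters (GRCm38.p6, 250 bases before to 50 after the start) were matched for 27 of 33 members and were searched on both strands. *Stard4*, *Abcg1*, *Npc1*, *Sqle*, *Fdft1* and *Fdps* were not searched. The letters TCACNCCAC, which also match inside the longer classic element, occurred in 1 of 27 member promoters, that of *Hmgcs1*, against 1.24% of 32851 promoters. The NF-Y box CCAAT occurred in 20 of 27 (74.1%) against 37.4%, the Sp1 box GGGCGG in 21 of 27 (77.8%) against 35.7%, and the E-box CACGTG in 5 of 27 (18.5%) against 7.15%. Exact matches to the longer classic sterol element and to a perfect direct repeat bound by LXR occurred in 0 of 27 member promoters. Their shares over all promoters were 0.0913% and 0.0152%. Elements that vary from the searched letters were not looked for. The lack of a match, in *Abca1* or any other member, therefore does not show that an element is absent. Promoters were not matched for base composition, and a match is not a bound site. Stretches of 150 bases are shown for 4 members, taken upstream of the RefSeq start or, for *Dhcr7*, of the gene's start in the table, which lies 22 bases further upstream, in capitals where a searched motif matched on either strand. *Hmgcs1* (chr13:119690201-119690350, plus strand) was chosen for its sterol element, *Mvd* (chr8:122443423-122443572, minus strand) for its pair of NF-Y boxes, *Dhcr7* (chr7:143822995-143823144, plus strand) as the synthesis member whose groups did not overlap, and *Abca1* (chr4:53159896-53160045, minus strand) as an LXR target.
Hmgcs1: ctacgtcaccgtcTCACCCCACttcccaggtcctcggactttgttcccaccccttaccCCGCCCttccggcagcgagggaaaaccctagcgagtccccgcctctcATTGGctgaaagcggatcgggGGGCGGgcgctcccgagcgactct
Mvd: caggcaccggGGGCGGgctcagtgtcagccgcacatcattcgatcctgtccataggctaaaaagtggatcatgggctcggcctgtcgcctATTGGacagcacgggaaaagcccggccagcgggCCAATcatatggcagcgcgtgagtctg
Dhcr7: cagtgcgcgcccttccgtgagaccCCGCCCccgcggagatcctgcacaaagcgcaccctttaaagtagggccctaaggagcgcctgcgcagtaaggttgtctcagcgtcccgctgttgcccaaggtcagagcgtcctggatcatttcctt
Abca1: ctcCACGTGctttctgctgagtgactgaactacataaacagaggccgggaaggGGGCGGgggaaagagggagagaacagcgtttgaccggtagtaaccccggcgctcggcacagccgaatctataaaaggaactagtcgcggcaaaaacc
In *Hmgcs1* the capitals hold the sterol element at −137 to −129 from the RefSeq start, an NF-Y box and a pair of Sp1 boxes, whereas in *Dhcr7* they hold 1 Sp1 box and in *Abca1* an E-box and an Sp1 box.

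Of the 18 synthesis members 0 passed the adjusted threshold in edgeR or limma voom, 1 (*Dhcr7*) passed in DESeq2, and 1 had an unadjusted edgeR p under 0.05. In the mevalonate arm 4 of 7 values were above 0 and 3 below, with a median log2 fold change of 0.11. *Pmvk*, which encodes phosphomevalonate kinase, measured 88.5, 61.4, 103 and 103 CPM in *K-Ctrl* replicates 1 to 4 and 117, 278, 102 and 44.7 CPM in *K-Setd2KO* replicates 1 to 4. The *K-Setd2KO* tumors held both the highest and the lowest level of the 8, and the groups overlapped. Its log2 fold change was 0.61 (SE 0.465, edgeR adjusted p 0.416), and −0.02 without *K-Setd2KO* replicate 2.

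*Hmgcs1*, which encodes the cytosolic synthase that condenses acetyl-CoA units ahead of mevalonate, measured 187, 183, 229 and 129 CPM in *K-Ctrl* and 180.3, 272, 221 and 161 CPM in *K-Setd2KO*. The ranges overlapped in part, with *K-Setd2KO* replicate 2 above all controls and *K-Ctrl* replicate 4 below all *K-Setd2KO* tumors, and the log2 fold change was 0.20 (95% interval −0.28 to 0.67). *Idi1*, the isomerase gene that makes dimethylallyl diphosphate, measured 11.8, 15.9, 13.6 and 5.71 CPM in *K-Ctrl* and 9.40, 4.44, 6.83 and 6.85 CPM in *K-Setd2KO*. *K-Ctrl* replicate 4 lay among the *K-Setd2KO* tumors, and the difference of −0.77 (95% interval −1.54 to 0.0023) had an edgeR adjusted p of 0.169.

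The other mevalonate genes were *Acat2* (cytosolic thiolase), *Mvk* (mevalonate kinase), *Mvd* (diphosphomevalonate decarboxylase) and *Fdps* (farnesyl diphosphate synthase), with log2 fold changes of 0.30, −0.12, −0.35 and 0.11. Their adjusted p-values ran from 0.338 to 0.876. Reads for 3 genes of this arm could be shared with near copies, since 39.1% of the 50-base stretches of *Acat2*, 26.2% of those of *Fdps* and 17.7% of those of *Idi1* also occur in other transcripts.

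In the arm from squalene to sterol 4 of 11 values were above 0 and 7 below, with a median of −0.22 and a range of −0.62 to 0.32. *Fdft1*, the squalene synthase gene, had the highest mean of this arm over the 8 tumors per kilobase (13.3, beside 13.0 for *Sc5d*, with overlap). It measured 34.8, 36.6, 36.0 and 37.0 CPM in *K-Ctrl* and 33.9, 41.0, 40.8 and 43.3 CPM in *K-Setd2KO*. The control tumors were tightly grouped, and 3 of the 4 *K-Setd2KO* tumors lay above all of them. The log2 fold change was 0.14 (SE 0.117, edgeR adjusted p 0.470, 95% interval −0.13 to 0.40). Of the exon bases of *Fdft1*, 26.8% lie over exons of *Ctsb* on the opposite strand, and whether the counting used strand is not given in the sources used here.

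*Dhcr7*, which encodes the reductase of the last step to cholesterol, measured 15.8, 18.1, 19.9 and 15.3 CPM in *K-Ctrl* and 11.0, 7.80, 12.2 and 14.2 CPM in *K-Setd2KO*. Every control tumor was above every *K-Setd2KO* tumor, though the nearest tumors were 15.3 and 14.2 CPM. The log2 fold change was −0.62 (SE 0.208, edgeR adjusted p 0.0816), short of the threshold, and DESeq2 gave an adjusted p of 0.0282.

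*Msmo1*, the sterol C4-methyl oxidase gene, measured 32.4, 33.5, 45.7 and 19.7 CPM in *K-Ctrl* and 27.8, 14.5, 24.3 and 18.7 CPM in *K-Setd2KO* (log2 fold change −0.62, SE 0.279, edgeR adjusted p 0.172). *Cyp51*, the lanosterol demethylase gene, measured 41.2, 55.0, 59.6 and 37.5 CPM in *K-Ctrl* and 42.5, 22.3, 38.3 and 38.9 CPM in *K-Setd2KO* (log2 fold change −0.45, SE 0.229, edgeR adjusted p 0.224). For both genes *K-Ctrl* replicate 4 fell within the range of the *K-Setd2KO* tumors, and for *Cyp51* so did replicate 1. *Lss*, the lanosterol synthase gene, measured 25.9, 22.9, 30.5 and 33.8 CPM in *K-Ctrl* and 38.4, 24.1, 39.3 and 39.0 CPM in *K-Setd2KO*. Here 3 of the 4 *K-Setd2KO* tumors exceeded all controls while replicate 2 did not, and the difference was 0.32 (SE 0.196, edgeR adjusted p 0.315).

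The remaining genes of this arm were *Sqle* (squalene epoxidase) at 0.20, *Tm7sf2* (sterol C14 reductase) at 0.04, *Ebp* (sterol isomerase) at −0.13, *Nsdhl* (C4 decarboxylating dehydrogenase) at −0.22, *Sc5d* (C5 desaturase) at −0.32 and *Hsd17b7* (C3 ketosteroid reductase) at −0.39 on the log2 fold-change scale. All 6 overlapped between the groups, and their adjusted p-values ran from 0.292 to 0.940. Tumors differed among themselves in this pathway. *K-Setd2KO* replicate 2 had the lowest level of the 8 tumors for 9 of 18 synthesis members, *Idi1*, *Fdps*, *Sqle*, *Cyp51*, *Msmo1*, *Nsdhl*, *Hsd17b7*, *Sc5d* and *Dhcr7*, and the highest for *Hmgcs1* and *Pmvk*. No other tumor was lowest for more than 3 synthesis members.

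**Figure D3:**
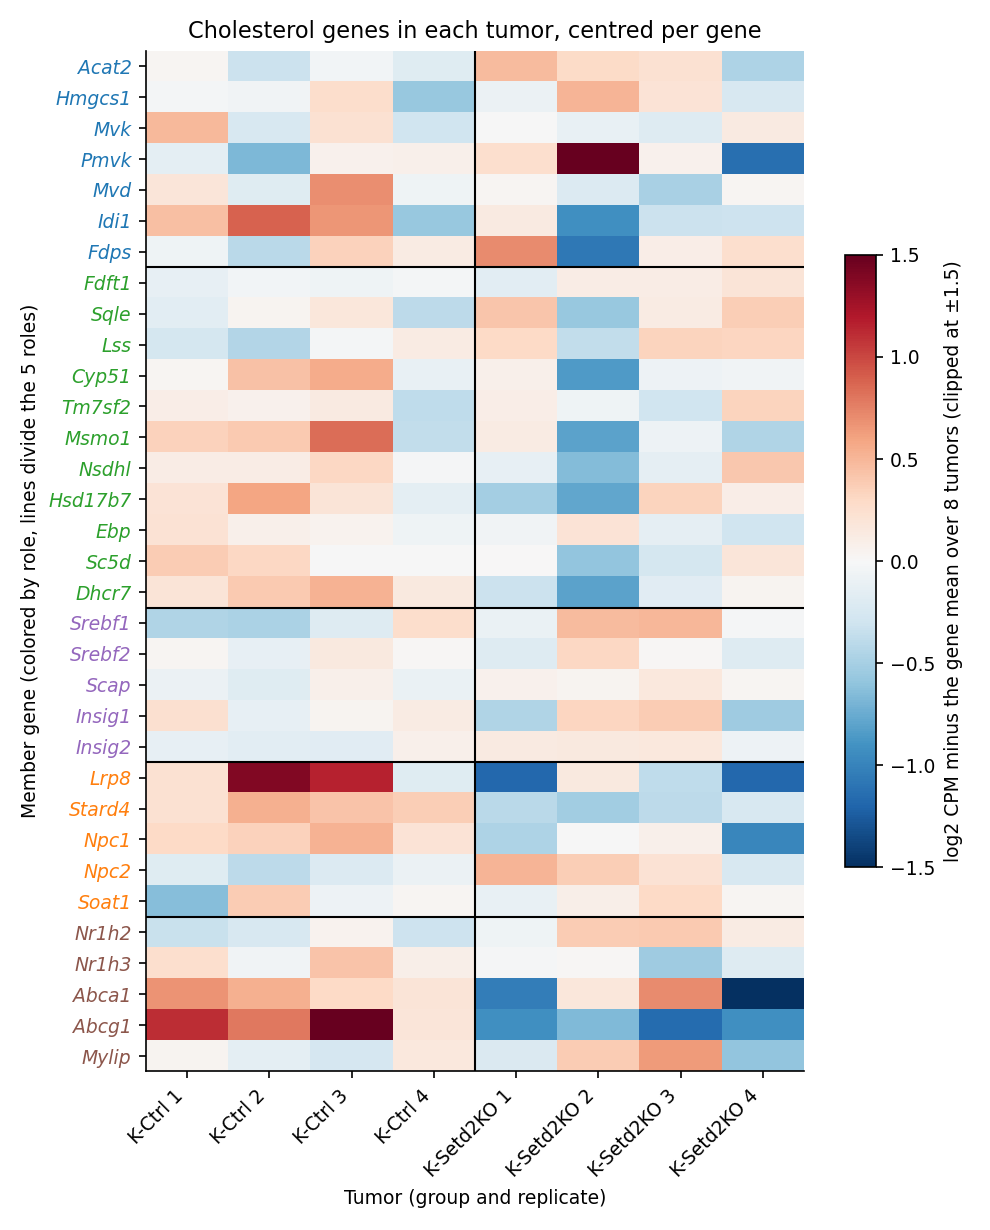
Log2 CPM of each member minus its mean over the 8 tumors (color, red higher and blue lower, clipped at ±1.5), with genes in rows grouped by the 5 roles and tumors in columns. *K-Setd2KO* replicate 2 is blue through most of the squalene to sterol rows, and *Stard4* and *Abcg1* are red in all *K-Ctrl* columns and blue in all *K-Setd2KO* columns.

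Of the 5 regulators of SREBP activity 0 were called by edgeR, DESeq2 or limma voom and 0 had an unadjusted edgeR p under 0.05, with a median of 0.14. *Srebf2*, which encodes the SREBP most directed at cholesterol genes, measured 112, 101, 121 and 111 CPM in *K-Ctrl* and 96.1, 136, 111 and 95.7 CPM in *K-Setd2KO*. The *K-Setd2KO* tumors reached both above and below the controls. The log2 fold change was −0.02 (SE 0.137, edgeR adjusted p 0.933), with a 95% interval of −0.33 to 0.29.

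*Srebf1*, whose products favor fatty acid genes, measured 73.6, 72.2, 87.9 and 121 CPM in *K-Ctrl* and 93.6, 139.9, 143 and 99.8 CPM in *K-Setd2KO*. The *K-Setd2KO* tumors were above 3 of the 4 controls, and *K-Ctrl* replicate 4 lay among them. The log2 fold change of 0.43 (SE 0.209) had an edgeR adjusted p of 0.207. *Srebf1* and *Srebf2* mRNA levels do not measure cleavage of the proteins.

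*Insig1*, a retention factor gene that SREBP itself induces, measured 73.4, 57.1, 63.9 and 68.0 CPM in *K-Ctrl* and 45.6, 77.6, 80.8 and 43.0 CPM in *K-Setd2KO* (log2 fold change −0.09, SE 0.221, edgeR adjusted p 0.827). The *K-Setd2KO* tumors stood on both sides of the whole control range, with replicates 1 and 4 below and replicates 2 and 3 above. *Insig2*, the related gene with less dependence on SREBP, and *Scap* differed by 0.18 (SE 0.113) and 0.14 (SE 0.110) on the log2 scale. Their edgeR adjusted p-values were 0.312 and 0.420.

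Members of uptake, transport and storage had a median log2 fold change of −0.64, with 1 call. An unadjusted edgeR p under 0.05 was reached by 4 of 5, 3 lower and 1 higher, against 29.9% of all tested genes. *Stard4* (ENSMUSG00000024378.9), whose protein shuttles sterol between membranes and whose gene is an SREBP target, measured 63.3, 78.2, 72.8 and 69.9 CPM in *K-Ctrl* and 40.9, 37.6, 41.1 and 45.7 CPM in *K-Setd2KO*. The groups were well apart, and the spread within each was small. *Stard4* fell by 0.78 on the log2 scale (SE 0.115, 95% interval −1.04 to −0.52, edgeR adjusted p 0.00738), or 1.72-fold lower. The difference within male tumors was −0.74 (3 *K-Ctrl*, 1 *K-Setd2KO*) and within female tumors −0.92 (1 *K-Ctrl*, 3 *K-Setd2KO*), each with 1 tumor on a side and no test. None of its 50-base stretches occur in another transcript. The pan-leukocyte sum above was also lower in each *K-Setd2KO* tumor than in any control. The macrophage sum overlapped between the groups, at 2649 CPM in *K-Setd2KO* replicate 1 against 2292 and 2113 CPM in *K-Ctrl* replicates 1 and 4. Of the 10 macrophage markers, 5 (*Cd68*, *Mrc1*, *Adgre1*, *Csf1r* and *Itgax*) were lower without overlap, against 20.3% of all tested genes without overlap. A higher value was seen for 1 of the 10. The endothelial marker sum was lower without overlap, at 414 to 1555 CPM in *K-Ctrl* and 156 to 395 CPM in *K-Setd2KO*. The part of leukocyte and endothelial RNA in this result was not tested.

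The lysosomal partners *Npc1* and *Npc2*, whose proteins pass cholesterol out of the lysosome in sequence, differed in sign. *Npc1* measured 166, 171, 194 and 156 CPM in *K-Ctrl* and 97.8, 134, 142 and 68.5 CPM in *K-Setd2KO*. *Npc2* measured 2479, 2155, 2453 and 2657 CPM in *K-Ctrl* and 4023, 3644, 3265 and 2396 CPM in *K-Setd2KO*. *Npc1* did not overlap between the groups, whereas for *Npc2* replicate 4 of *K-Setd2KO* lay among the controls. The log2 fold changes were −0.64 for *Npc1* (SE 0.215, edgeR adjusted p 0.0830) and 0.45 for *Npc2* (SE 0.182, edgeR adjusted p 0.133), so neither passed the edgeR threshold, while DESeq2 gave *Npc1* an adjusted p of 0.0343.

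Within each tumor, the ratio of *Npc2* to *Npc1* per kilobase was 49.1, 41.4, 41.5 and 56.0 in *K-Ctrl* and 135, 89.3, 75.5 and 115 in *K-Setd2KO*. This ratio does not depend on library scaling, and it was higher in each *K-Setd2KO* tumor than in any control. The mean log2 ratio differed by 1.12 between the groups. The ratio was formed after the values of both genes were seen and carries no test.

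*Lrp8*, a receptor gene of the lipoprotein receptor family, was the lowest member in level and measured 4.31, 9.83, 8.31 and 3.21 CPM in *K-Ctrl* and 1.54, 4.05, 2.77 and 1.54 CPM in *K-Setd2KO*. Only *K-Setd2KO* replicate 2 reached into the control range. The log2 fold change was −1.36 (SE 0.466, edgeR adjusted p 0.0859), and DESeq2 gave an adjusted p of 0.0307. *Soat1* measured 357, 722, 528 and 568 CPM in *K-Ctrl* and 513, 592, 686 and 565 CPM in *K-Setd2KO*. Its control values spanned more than its *K-Setd2KO* values, and the difference was 0.12 (95% interval −0.35 to 0.58).

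**Figure D4:**
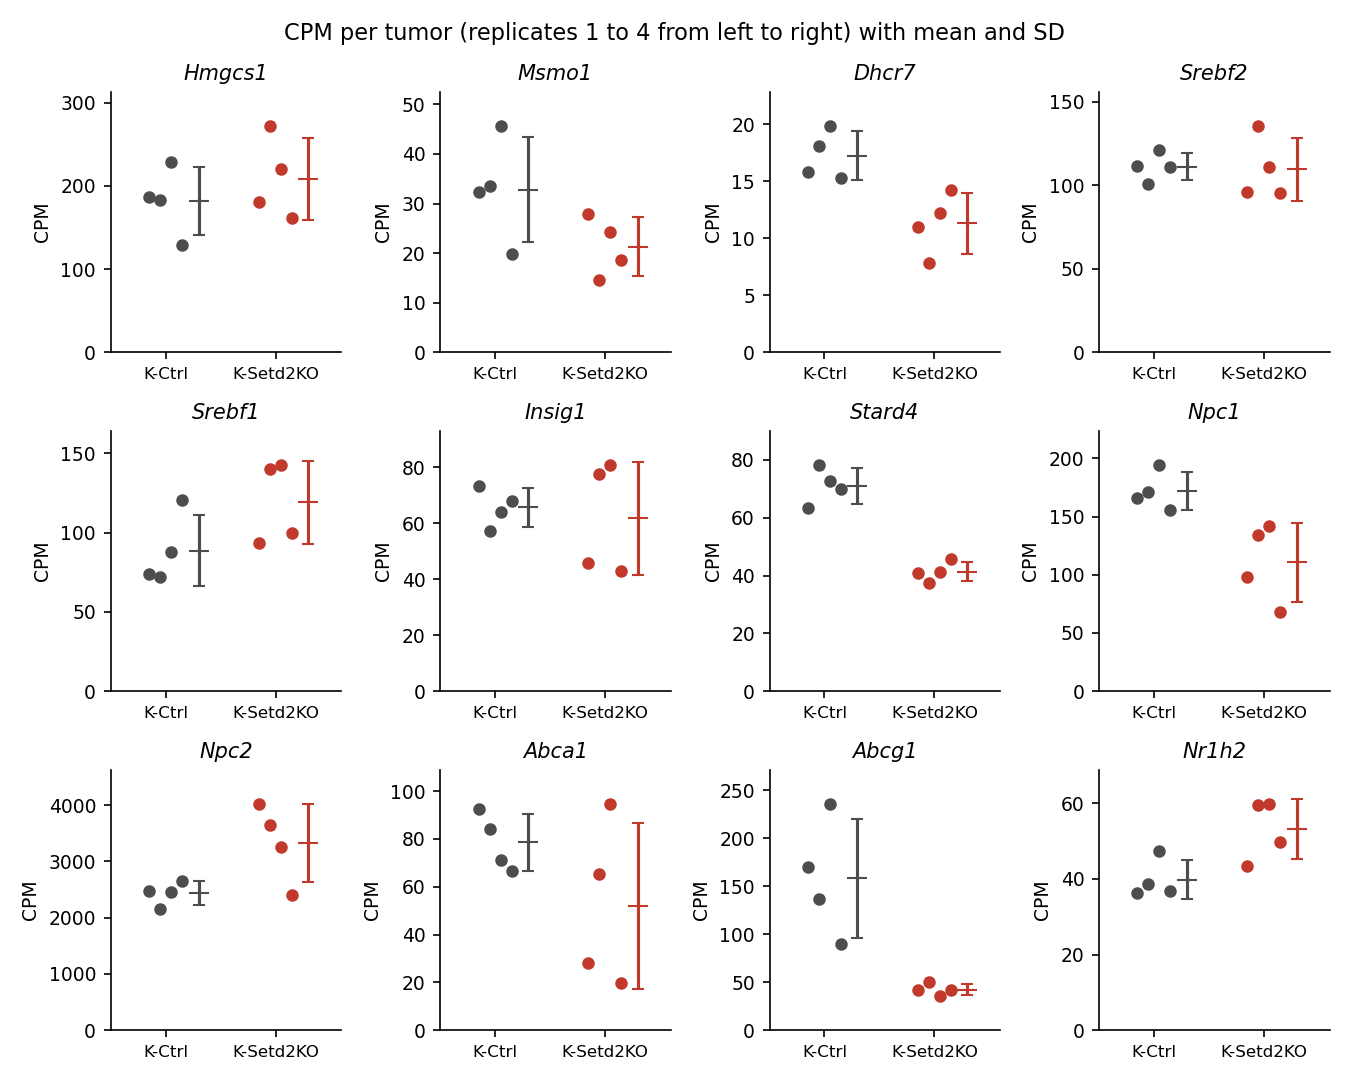
CPM per tumor (vertical axes from 0) for 12 members, with replicates 1 to 4 from left to right in each group and the mean with SD at the side. *Stard4*, *Abcg1*, *Npc1* and *Dhcr7* show no overlap between *K-Ctrl* and *K-Setd2KO*, while *Insig1* and *Abca1* spread in *K-Setd2KO*.

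Among LXR and efflux genes, 1 of 5 was called and the median was −0.36. An unadjusted edgeR p under 0.05 was reached by 2 of 5, 1 lower and 1 higher, against 29.9% of all tested genes. *Abcg1* (ENSMUSG00000024030.6, GRCm38 chromosome 17, 31057698 to 31115777, plus strand, protein-coding) encodes a pump that passes cholesterol to high-density lipoprotein and is an LXR target prominent in macrophages. It measured 170.3, 137, 236 and 89.4 CPM in *K-Ctrl* and 41.6, 49.9, 35.4 and 41.6 CPM in *K-Setd2KO*. Every control was well above every *K-Setd2KO* tumor, and the controls varied more. *Abcg1* fell by 1.91 on the log2 scale (SE 0.271, 95% interval −2.52 to −1.30, edgeR adjusted p 0.00667), or 3.75-fold lower.

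The difference in *Abcg1* was −2.22 within male and −1.63 within female tumors, again with 1 tumor on a side. In *K-Ctrl* replicates 1 to 4 the macrophage marker sums were 2292, 3865, 6467 and 2113 CPM. Replicate 3 was highest and replicate 4 lowest for both this sum and *Abcg1*, whereas replicate 1 had more *Abcg1* than replicate 2 with a lower sum. Of the 10 macrophage markers, 5 were lower in *K-Setd2KO* without overlap, as given above. In *K-Setd2KO* the macrophage sums ran from 423 to 2649 CPM while *Abcg1* stayed between 35.4 and 49.9 CPM. The pan-leukocyte sum, in contrast, varied little within *K-Setd2KO*, at 277, 222, 221 and 219.8 CPM, and lay below all controls (588, 972, 852 and 514 CPM). The endothelial marker sum was 414 to 1555 CPM in *K-Ctrl* and 156 to 395 CPM in *K-Setd2KO*, also without overlap, with a median of −1.68 and 1 of 6 markers called (lower), while all 6 had lower values at an unadjusted p under 0.05. The part of macrophage, other leukocyte and endothelial RNA in the *Abcg1* result was not tested.

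*Abca1*, the pump gene for lipid-poor apolipoproteins and likewise an LXR target, measured 92.6, 84.0, 71.3 and 66.6 CPM in *K-Ctrl* and 28.2, 65.1, 94.6 and 19.9 CPM in *K-Setd2KO*. Replicates 1 and 4 of *K-Setd2KO* were far below the controls, replicate 2 was just below them and replicate 3 was above all of them. The log2 fold change of −0.59 (SE 0.431) had an edgeR adjusted p of 0.392. *Mylip*, an LXR-induced ubiquitin ligase gene, measured 30.7, 27.0, 25.1 and 33.3 CPM in *K-Ctrl* and 25.7, 38.9, 46.8 and 19.9 CPM in *K-Setd2KO*. Here too replicate 3 of *K-Setd2KO* was the highest tumor and replicate 4 the lowest, and the difference was 0.18 (SE 0.255, edgeR adjusted p 0.674).

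The receptor genes differed in sign. *Nr1h3*, encoding LXR-alpha, measured 19.7, 15.9, 22.3 and 17.6 CPM in *K-Ctrl* and 16.3, 16.8, 11.4 and 14.4 CPM in *K-Setd2KO*, with overlap (log2 fold change −0.36, SE 0.182, edgeR adjusted p 0.218). *Nr1h2*, encoding the widely expressed LXR-beta, measured 36.1, 38.6, 47.4 and 36.9 CPM in *K-Ctrl* and 43.5, 59.4, 59.8 and 49.8 CPM in *K-Setd2KO* (log2 fold change 0.42, SE 0.149, edgeR adjusted p 0.0953). The ratio of *Nr1h2* to *Nr1h3* per kilobase was 1.38 to 1.82 in the controls and 2.00 to 3.95 in *K-Setd2KO*. Like that of *Npc2* to *Npc1*, it was formed with the values of both genes known and carries no test, and how often other pairs of genes separate the groups was not examined. The ratios of *Srebf1* to *Srebf2*, *Insig1* to *Insig2* and *Abca1* to *Abcg1* overlapped between the groups, with mean log2 differences of 0.47, −0.32 and 0.98.

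**Figure D5:**
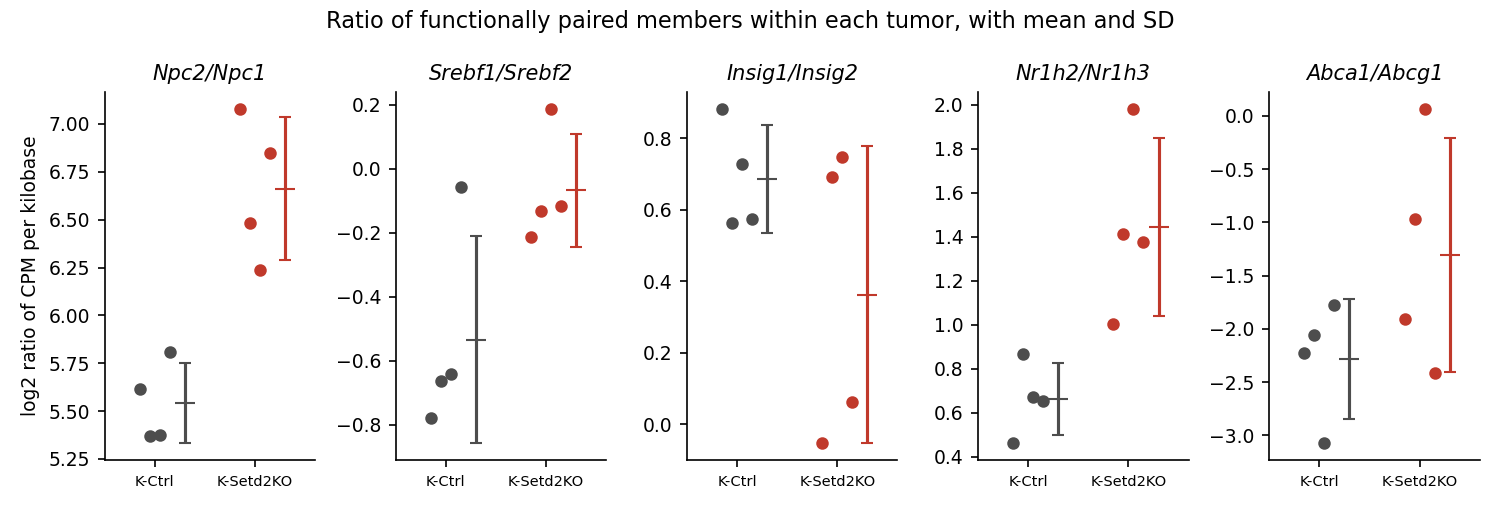
Log2 ratio of CPM per kilobase for 5 pairs of related members within each tumor (vertical axes differ between panels and do not start at 0), with mean and SD at the side. The means differ by 1.12 for *Npc2*/*Npc1* and 0.78 for *Nr1h2*/*Nr1h3* on the log2 scale, with no test, and the other 3 pairs overlap.

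Averaged within each role, log2 CPM centred per gene differed between *K-Setd2KO* and *K-Ctrl* by −0.04 for the mevalonate arm, −0.20 for the squalene to sterol arm, 0.12 for SREBP regulators, −0.44 for uptake, transport and storage and −0.50 for LXR and efflux. The LXR and efflux means were 0.063 to 0.42 in *K-Ctrl* and −0.62 to 0.058 in *K-Setd2KO*, so the nearest tumors lay close together without overlap. Most of this difference came from *Abcg1*: without it the other 4 genes differed by −0.17, with overlap, and *Nr1h2* and *Mylip* were above 0. Without *Stard4* the other 4 genes of uptake, transport and storage differed by −0.35. Both averages without the called gene were added after the data were seen. The groups overlapped for the other 4 roles. These averages were not tested, and all 5 moved with single tumors. The mevalonate difference was 0.05 without *K-Ctrl* replicate 3 and ranged from −0.12 to 0.05 when 1 tumor was left out. Without *K-Setd2KO* replicate 2 the squalene to sterol difference was −0.08 (range −0.27 to −0.08) and that of SREBP regulators 0.05 (range 0.05 to 0.19). The ranges were −0.51 to −0.34 for uptake, transport and storage and −0.61 to −0.38 for LXR and efflux. The 33 members together took 0.440% to 0.484% of counts in *K-Ctrl*. In *K-Setd2KO* they took 0.556% to 0.562% in replicates 1 to 3 and 0.413% in replicate 4, where *Npc2* was also lowest.

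Neighboring genes of these pathways gave calls in both directions. Over all 14929 tested genes DESeq2 called 3194, against 1897 by edgeR. Of 4 further sterol synthesis genes 0 were called by edgeR or limma voom, 1 (*Erg28*) was called higher by DESeq2, and 1 had an unadjusted edgeR p under 0.05. Of 10 isoprenoid branch genes 0 were called by any of the 3 tools, and 0 had an unadjusted p under 0.05. Of 10 genes for SREBP processing and sterol-sensing degradation, 1 was called by edgeR, *Erlin1*, an endoplasmic reticulum membrane protein gene linked to sterol sensing, which fell by 1.08 on the log2 scale (edgeR adjusted p 0.0121).

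Of 18 further sterol carriers, receptors and hydrolases, 3 were called by edgeR (16.7%, against 12.7% of all tested genes), and DESeq2 added *Scarb1* as lower. *Gramd1b* encodes a carrier of plasma membrane cholesterol to the endoplasmic reticulum. It rose from 68.2, 93.5, 111 and 109 CPM to 165, 178, 136 and 125 CPM (log2 fold change 0.66, edgeR adjusted p 0.0431). *Lrp1*, a large endocytic lipoprotein receptor gene, measured 241, 154, 228 and 123 CPM in *K-Ctrl* and 61.6, 57.4, 53.3 and 49.1 CPM in *K-Setd2KO* (−1.75, edgeR adjusted p 0.00560). *Nceh1*, a cholesteryl ester hydrolase gene, fell by 1.36 on the log2 scale (edgeR adjusted p 0.0220). The groups did not overlap for *Gramd1b*, *Lrp1* or *Nceh1*, as for 20.3% of all tested genes. Of 17 alternative fits, *Lrp1* was called in 17 and *Nceh1* in 14, but *Gramd1b* in 9. With a sex term the adjusted p of *Nceh1* was 0.0544 and that of *Gramd1b* 0.125. The macrophage and pan-leukocyte markers given above were lower as well, and so was the endothelial list, in which no marker was at 0 in any tumor. The part of these cell types in the lower values of *Erlin1*, *Lrp1* and *Nceh1*, and of *Cyp27a1*, *Ch25h* and *Elovl6* below, was not tested.

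Of 14 LXR partners, oxysterol enzymes and other LXR targets, 12 were tested and 2 were called by edgeR (16.7%, beside 12.7% of all tested genes), the oxysterol enzyme genes *Cyp27a1* and *Ch25h*. DESeq2 called 4, adding *Rxra*, the gene of an LXR partner receptor, as lower (edgeR log2 fold change −0.68, adjusted p 0.0509) and *Lpcat3*, a phospholipid-remodeling enzyme gene, as higher (edgeR log2 fold change 0.73, adjusted p 0.0774), and limma voom called *Cyp27a1* alone. *Cyp27a1*, the sterol 27-hydroxylase gene, measured 12.8, 6.47, 6.92 and 6.07 CPM in *K-Ctrl* and 2.72, 3.82, 2.58 and 1.03 CPM in *K-Setd2KO*. *Ch25h*, the cholesterol 25-hydroxylase gene, measured 14.3, 44.8, 38.5 and 19.7 CPM in *K-Ctrl* and 13.6, 6.65, 5.35 and 10.4 CPM in *K-Setd2KO*. They fell by 1.63 and 1.70 on the log2 scale (edgeR adjusted p 0.0323 and 0.0335), without overlap. *Cyp27a1* was called in 10 of 16 alternative fits and *Ch25h* in 9 of 17. The adjusted p was 0.0982 for *Cyp27a1* with a sex term and 0.107 for *Ch25h* with a replicate block. In the fatty acid list, tied to SREBP through *Srebf1*, 2 of 12 were called by edgeR, again 16.7%, and DESeq2 added *Me1* as higher. *Fasn*, the fatty acid synthase gene, rose, with 724, 736, 789 and 838 CPM in *K-Ctrl* and 1259, 1505, 976 and 1065 CPM in *K-Setd2KO* (log2 fold change 0.64, edgeR adjusted p 0.0342), while the elongase gene *Elovl6* fell by 2.03 (edgeR adjusted p 0.0181). *Fasn* was called in 10 and *Elovl6* in 14 of 17 alternative fits. The adjusted p of *Fasn* was 0.125 with a sex term.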

How the data were processed

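Whole lung tumors (4 *K-Ctrl*, 4 *K-Setd2KO*) were profiled with a stranded mRNA kit and paired-end reads. The authors deposited raw counts per gene with no normalization. The submitters' processing notes name STAR 2.5.2b, featureCounts 1.5.0-p1 and GRCm38.p4. The annotation release and the strand setting are not given in the sources used here. Identifiers were matched to GENCODE M21 symbols (99.26% of 48709), and no row lacked a gene. Groups and replicate numbers came from the labels. The allele that defines the *K* model is not reported here. Within groups, pairs of libraries differed by a chi-square of at least 30.5 per degree of freedom, so none was treated as a copy.

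Counts were tested with edgeR 4.0.16 in R 4.3.3 (filterByExpr, TMM factors, robust quasi-likelihood test on genotype, Benjamini-Hochberg over 14929 genes, threshold 0.05). CPM values used TMM-scaled library sizes, and log2 CPM a prior count of 2. Levels between genes were compared per kilobase of summed exon length. Alternatives were DESeq2 (the tool of the study, here version 1.42.0), limma voom 3.58.1, other scalings and filters, a replicate block, a sex term (sex read from *Xist* and Y-linked genes) and each tumor left out in turn. The fits were tested on simulated data.

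The 33 members, the lists and the tests were chosen with earlier results of these data known. All members are named. Called members, *Srebf1*, *Srebf2*, *Nr1h3* and the most abundant member of each role are given in full by rule, as are up to 3 called genes of each other list. Further members were given in full after their values were seen. Promoter sequences are from RefSeq (GRCm38.p6), using for each member the promoter nearest to its start in the table. Marker lists of further cell types had medians of −0.66 (alveolar type 1), −0.78 (club), −1.61 (T cell), −2.00 (B cell), 0.54 (neutrophil), −1.68 (endothelium), −0.89 (fibroblast) and −0.81 (smooth muscle) on the log2 fold-change scale. The 3-count limit covers counting error only, and the 95% intervals of log2 fold changes include the spread between tumors.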

Additional observations from a re-analysis of the deposited data

Results flagged for a closer look

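In 3 of 78 groups of 4 values, a tumor lay apart from the other 3 by Dixon's test at the 95% level, and chance alone gives about 3.9. *Lss* was 24.1 CPM in *K-Setd2KO* replicate 2, where the other 3 tumors of the group measured 38.4, 39.3 and 39.0 CPM. *Tm7sf2* was 3.48 CPM in *K-Ctrl* replicate 4, beside 4.92, 4.79 and 5.03 CPM in the other controls. *Insig2* was 46.2 CPM in *K-Setd2KO* replicate 4, beside 53.1, 53.9 and 54.0 CPM in the rest of its group.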

How the results depend on the processing

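*Stard4* and *Abcg1* passed an adjusted p of 0.05 in each of the 17 alternative fits, with log2 fold changes of −0.84 to −0.74 and −2.10 to −1.65. DESeq2 called 3194 of 14929 genes, 1327 higher and 1867 lower. It called 5 of 33 members, all 5 lower, adding *Dhcr7*, *Lrp8* and *Npc1*. A sex term gave 1237 genes. Leaving out 1 tumor gave 763 to 2058 genes, under the full count by over 1.5 times without *K-Ctrl* replicate 1 (938), 2 (1126) or 3 (763) or *K-Setd2KO* replicate 3 (1011), and 2 members, both lower and 0 higher, each time. With library totals alone 581 genes were called higher and 1312 lower. Same-numbered tumors had correlations over 2000 genes of −0.09, 0.09, 0.27 and −0.10, beside −0.34 to 0.21 for differently numbered tumors. Sex was not taken out of these values, so they cannot decide whether the numbers mark pairs. A replicate block called 1341 genes and 3 members, adding *Lrp8* (adjusted p 0.0387). Of 560 member values under the alternatives, 536 kept direction and side of the threshold, 4 passed it newly and 20 turned sign, in 8 members that were not called. Outside the fits that leave out a tumor, these were *Fdps* (−0.0086) and *Tm7sf2* (−0.0071) in limma voom, *Tm7sf2* with library totals alone (−0.013) and under the stricter filter of 10 counts or more per tumor (−0.0025), and *Tm7sf2* (−0.11), *Srebf2* (0.031) and *Insig1* (0.10) with a sex term. Leaving out 1 tumor gave ranges of −0.23 to 0.040 for *Mvk*, −0.015 to 0.89 for *Pmvk*, −0.17 to 0.36 for *Fdps*, −0.079 to 0.14 for *Tm7sf2*, −0.15 to 0.039 for *Srebf2*, −0.24 to 0.044 for *Insig1*, −0.044 to 0.28 for *Soat1* and −0.035 to 0.35 for *Mylip*. The causes were not tested. That filter left out *Lrp8*.

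For called genes outside the 33, the same alternatives were run after the data were seen. Without any 1 of the tumors named, the call was lost for *Nceh1* (*K-Ctrl* 1, 3), *Elovl6* (*K-Ctrl* 3, *K-Setd2KO* 3), *Fasn* (*K-Ctrl* 1, 2, 3, *K-Setd2KO* 1, 2), *Gramd1b* (those and *K-Setd2KO* 3), *Cyp27a1* (*K-Ctrl* 1, 2, 3, *K-Setd2KO* 1, 3) and *Ch25h* (*K-Ctrl* 2, 3, *K-Setd2KO* 2, 3, 4), with adjusted p up to 0.0594, 0.0563, 0.125, 0.125, 0.0982 and 0.107 over all alternatives. The sex term also lost *Fasn*, *Gramd1b*, *Nceh1* and *Cyp27a1*, the replicate block *Fasn*, *Elovl6*, *Gramd1b* and *Ch25h*, and limma voom and no filter *Ch25h*. Sex is uneven, with 3 male tumors of 4 in *K-Ctrl* and 1 of 4 in *K-Setd2KO*. None turned sign. In the shallowest tumor the 3-count limit was 0.513 CPM, beside 1.54 CPM for *Lrp8*, the lowest of the 33 there, and 1.03 CPM for *Cyp27a1*.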
